A study of Mus musculus with 6 samples.

Results

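Mitochondrial genome transcripts are the RNAs made from the small circular DNA inside mitochondria. They were taken as every row of the count table whose GENCODE symbol begins with mt-, which gave 37 of 57126 rows: 13 mRNA genes, 2 rRNA genes and 22 tRNA genes. The samples were OT-I mouse CD8+ T cells, which carry a transgenic receptor for an ovalbumin peptide and were obtained from lymph nodes and spleens. All were expanded with nano-aAPCs, particles that act as artificial antigen-presenting cells, and harvested on day 6. The 3 TEff samples, the effector cells, were cultured with mIL-2. The 3 TRM-like samples, a culture model of tissue-resident memory cells, were cultured with mIL-2, mIL-15 and mTGF-β. The paper's sequencing methods name mouse IL-2, but its murine culture methods name human IL-2. Animal age, the number of animals and any pooling of them are not given in the sources used here, so p-values measure only the spread between these samples, which may be technical.

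Mitochondrial DNA is transcribed from both strands into long precursors that are cut, mostly at the tRNAs, into separate rRNAs, mRNAs and tRNAs. Every mRNA encodes a subunit of the respiratory chain or of ATP synthase, and the rRNAs and tRNAs serve the organelle's own ribosomes. All proteins that copy, transcribe and process this genome are encoded in the nucleus, and activated CD8+ T cells are known to adjust mitochondrial mass and respiration as they become effector or memory cells.

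On GRCm39 the mitochondrial chromosome is 16299 bases long. 12 of the mRNAs, both rRNAs and 14 tRNAs lie on its plus strand and are read from the heavy strand as template, whereas mt-Nd6 and 8 tRNAs lie on the minus strand. The genes are packed so closely that neighbours share bases, and reads from such bases cannot be assigned to a single gene. The longest shared stretch, 43 bases, joins mt-Atp8 (chrM:7766-7969) and mt-Atp6 (chrM:7927-8607). 3 overlaps between mRNAs, given here in plus-strand letters with the shared bases in capitals and up to 15 bases on either side, are shown because they bear on how the counts of these genes can be read.
mt-Atp8 and mt-Atp6, chrM:7912-7984, same strand: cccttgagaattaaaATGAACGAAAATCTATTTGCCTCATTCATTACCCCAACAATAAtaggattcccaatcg
mt-Nd4l and mt-Nd4, chrM:10152-10188, same strand: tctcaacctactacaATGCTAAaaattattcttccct
mt-Nd5 and mt-Nd6, chrM:13537-13580, opposite strands: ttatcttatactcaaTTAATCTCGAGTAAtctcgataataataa
In the mt-Atp8 and mt-Nd4l overlaps the capitals open with the ATG that starts the downstream reading frame. At the third place the genes face each other, so without strand information reads on those 14 bases could belong to either. The strand setting of the counts is not given in the sources used here. Counted without strand, all of mt-Nd6 and the minus-strand tRNAs could also collect reads of the opposite-strand precursor.

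Only 3 tRNA genes reached 10 counts in each of the samples, and all 3 lie on the minus strand. Their sequences are given 5′ to 3′ along that strand, in DNA letters with the anticodon in capitals, because they carried nearly all tRNA counts.
mt-Tp (proline), chrM:15356-15422: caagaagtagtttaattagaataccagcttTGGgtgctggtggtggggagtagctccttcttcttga
mt-Tn (asparagine), chrM:5089-5159: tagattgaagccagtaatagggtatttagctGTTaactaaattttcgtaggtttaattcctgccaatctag
mt-Tc (cysteine), chrM:5192-5257: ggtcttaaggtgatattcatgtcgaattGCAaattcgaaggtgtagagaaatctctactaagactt
Between mt-Tn and mt-Tc lie 32 bases, chrM:5160-5191, that hold the light-strand origin of replication.

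Total counts ran from 18319013 to 23622621 per sample. TRM-like replicate 3 stood apart from the other TRM-like samples: a chi-square statistic of the counts, averaged over genes, was 7.26 between TRM-like replicates 1 and 2, but 96.3 and 112 between each of them and replicate 3, against 3.73 to 26.1 among the TEff samples. Between TRM-like replicate 3 and TEff replicates 1, 2 and 3 the statistic was 41.9, 82.4 and 37.4, all lower than against its own group. Between TRM-like replicates 1 and 2 and the TEff samples it was 54.3 to 93.4. The number of genes with a count was 35130 and 35559 in TRM-like replicates 1 and 2, against 24229 to 24908 elsewhere. No pair of samples agreed within sampling noise, so each was counted as a separate sample. The 7 CD8 T cell markers were detected in every group, at summed levels of 2150 to 2283 CPM (counts scaled to a library of 1000000) in TEff and 2802 to 3769 in TRM-like samples. Summed markers of other cells were low: B cells 5.94 to 6.78 and 7.29 to 10.9 CPM, myeloid cells 0.549 to 1.37 and 0.138 to 1.70, NK cells 18.8 to 34.9 and 1.94 to 11.95 (including Eomes, which CD8 T cells also express), CD4 T cells 0.442 to 1.11 and 0.786 to 1.34, and erythroid cells 0.608 to 1.06 and 0.646 to 0.959, with 2 of 5 erythroid markers at 0 throughout. Because TRM-like replicate 3 departs from its group, results that change in call, direction or by over 1.5 times without it are given both ways.

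Mitochondrial genes took overlapping shares of all counts in the groups, and most of it was large-subunit rRNA. All mitochondrial genes together took 20.6%, 21.7% and 20.2% of counts in the TEff samples and 21.4%, 20.8% and 17.2% in the TRM-like samples. The groups overlapped, with means of 20.8% ± 0.772 and 19.8% ± 2.29 (SD, n = 3 each; two-sided exact permutation p = 0.7). The lowest value was that of TRM-like replicate 3, and without it the TRM-like mean was higher than the TEff mean by 0.268 percentage points rather than lower. In bulk RNA, fewer mitochondrial genomes per cell and less RNA from each cannot be told apart, nor can fewer cells of a type and less RNA per cell.

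The mitochondrial rRNAs, which form the core of the organelle's ribosome, took 18.9%, 20.0% and 18.5% of counts in TEff and 19.4%, 18.8% and 15.6% in TRM-like samples (means 19.1% ± 0.801 and 17.9% ± 2.05, SD, n = 3 each; exact permutation p = 0.5). The difference of -1.21 percentage points became -0.0367 without TRM-like replicate 3. mt-Rnr2 (chrM:1094-2675), the large-subunit rRNA, alone held 17.5% to 18.8% of counts in TEff and 14.8% to 18.1% in TRM-like samples. mt-Rnr1 (chrM:70-1024), the small-subunit rRNA, held 0.817% to 1.20% and 0.783% to 1.24%. Both rRNAs are built into ribosomes in equal number, yet mt-Rnr2 had 13.3, 9.46 and 11.6 times the counts per kilobase of mt-Rnr1 in TEff and 8.83, 9.77 and 11.4 times in TRM-like samples. The libraries were made with a total RNA kit, and how its rRNA removal step treats each mitochondrial rRNA was not tested, so this ratio cannot be read as a ratio in the cells.

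The 13 mRNAs took 1.73%, 1.69% and 1.75% of counts in TEff and 2.05%, 2.01% and 1.61% in TRM-like samples. TRM-like replicates 1 and 2 lay above every TEff sample and replicate 3 below them all, so the groups overlapped (1.73% ± 0.0299 and 1.89% ± 0.240, SD, n = 3 each; exact permutation p = 0.4). The difference was 0.164 percentage points, and 0.302 without replicate 3. The tRNAs took 0.00261%, 0.00246% and 0.00224% in TEff and 0.00526%, 0.00514% and 0.00279% in TRM-like samples. Here all 3 TRM-like samples were above all 3 TEff samples (0.00244% ± 0.000189 and 0.00440% ± 0.00140, SD, n = 3 each), at a two-sided exact permutation p of 0.1, the smallest that 3 against 3 samples can give. Wilson 95% intervals of a single sample's share were no wider than 0.0178 percentage points either side for rRNA, 0.00601 for mRNA and 0.000299 for tRNA, and cover counting error only. For tRNA, the interval of TRM-like replicate 3 (0.00257% to 0.00302%) overlapped that of TEff replicate 1 (0.00241% to 0.00284%).

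**Figure D1:**
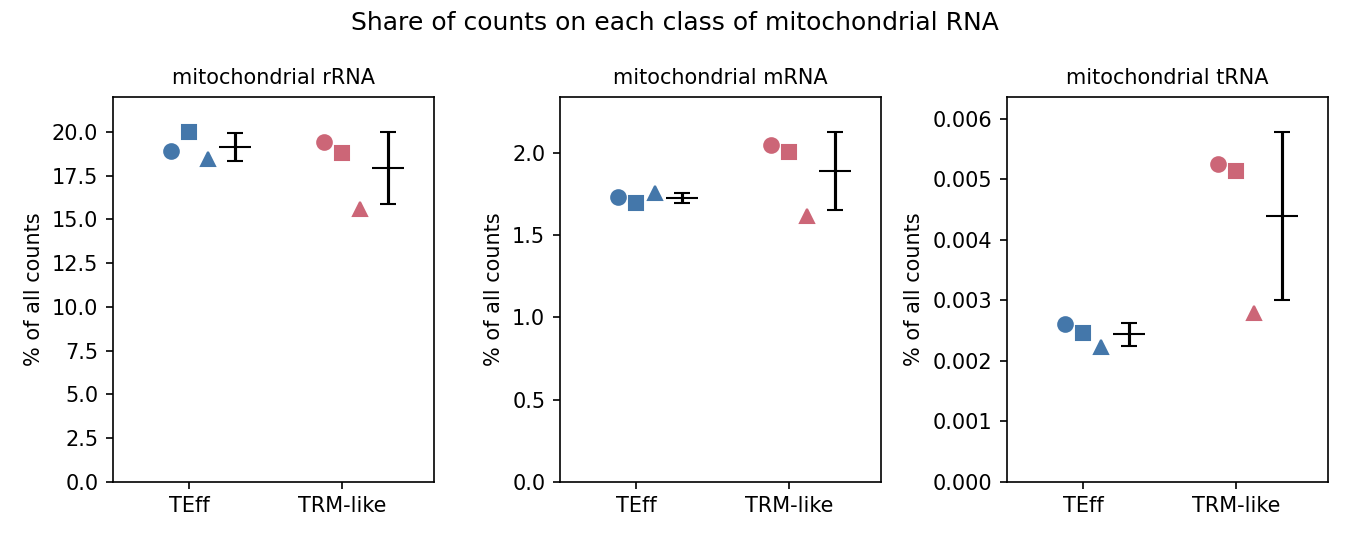
Share of all counts (%) on mitochondrial rRNA, mRNA and tRNA in each sample (circle, square and triangle are replicates 1, 2 and 3), with the group mean and SD in black. The rRNA and mRNA shares overlapped between groups, and the tRNA share was higher in all TRM-like samples, with replicate 3 (0.00279%) nearest to the TEff samples.

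Relative to counts on the mRNAs, rRNA counts were lower in every TRM-like sample. Counts per kilobase on the rRNAs were 44.6, 49.1 and 43.2 times those on the mRNAs in TEff and 37.4, 36.7 and 39.6 times in TRM-like samples. The groups did not overlap (45.6 ± 3.09 and 37.9 ± 1.53, SD, n = 3 each; exact permutation p = 0.1, the smallest possible), and TRM-like replicate 3 was on the same side as the others. Its rRNA and mRNA shares of counts (15.6% and 1.61%) were both below the TEff range, however. In replicates 1 and 2 the mRNA share was above that range and the rRNA share inside it. The untested rRNA removal step bears on this ratio too, so it cannot be read as a ratio in the cells.

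Levels of the 13 mRNAs differed widely although 12 of them come from the same strand. Per kilobase, the mRNAs of cytochrome c oxidase, complex IV, led in every sample. In TEff, mt-Co1, the catalytic subunit, made up 26.8% ± 0.181 of mRNA counts per kilobase, mt-Co3 25.5% ± 0.659 and mt-Co2 16.2% ± 0.405 (SD, n = 3). The mt-Co1 and mt-Co3 shares differed by less than 2 percentage points in TEff, and mt-Co3 was ahead in TRM-like replicates 1 and 2. Next came mt-Atp6 at 8.70% ± 0.423, mt-Nd1 at 7.94% ± 0.576, mt-Nd3 at 5.02% ± 0.510 and mt-Cytb at 4.68% ± 0.307, of which mt-Atp6 and mt-Nd1, and mt-Nd3 and mt-Cytb, were neighbours whose spreads touched or overlapped. mt-Atp8, at 2.13% ± 0.188, and mt-Nd2, at 1.33% ± 0.0745, were clear of their neighbours. The lowest were mt-Nd4 (0.612% ± 0.104), mt-Nd5 (0.496% ± 0.0352), mt-Nd4l (0.324% ± 0.0600) and the minus-strand mt-Nd6 (0.287% ± 0.0493). Among these, the spreads of mt-Nd4 and mt-Nd5 overlapped, as did those of mt-Nd4l and mt-Nd6.

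The range from the lowest to the highest mRNA per kilobase was 109-fold, 78.8-fold and 96.7-fold in TEff. It was 42.6-fold and 50.4-fold in TRM-like replicates 1 and 2 but 111-fold in replicate 3. Genes that share a transcript did not have equal levels: mt-Atp6 had 3.44 to 4.77 times the counts per kilobase of mt-Atp8 over the 6 samples, and mt-Nd4 had 1.78 to 2.18 times those of mt-Nd4l. mt-Atp8 and mt-Nd4l are short genes, and how counting of reads that span the overlaps affects them was not tested.

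Complex I, the NADH dehydrogenase that feeds electrons into the chain, has 7 mitochondrial subunit genes. mt-Nd1 (chrM:2751-3707) was the highest of them per kilobase and overlapped between the groups, at 1354, 1221 and 1501 CPM in TEff and 1432, 1397 and 1532 in TRM-like samples (log2 fold change 0.10, SE 0.15). mt-Nd2 (chrM:3914-4951) was at 231, 247 and 259 CPM in TEff and 385, 350 and 268 in TRM-like samples. It was the only mRNA whose CPM did not overlap between the groups, but it did not pass the test (log2 fold change 0.44, SE 0.16; edgeR quasi-likelihood with Benjamini-Hochberg adjustment over all genes tested, adjusted p = 0.235).

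The remaining complex I mRNAs divided the TRM-like samples. mt-Nd4 (chrM:10167-11544) had 132, 173 and 145 CPM in TEff and 386, 309 and 131 in TRM-like samples. mt-Nd5 (chrM:11742-13565) had 153, 168 and 162 CPM in TEff and 343, 298 and 141 in TRM-like samples. mt-Nd6 (chrM:13552-14070, minus strand) had 22.9, 30.6 and 26.2 CPM in TEff and 71.6, 67.5 and 20.3 in TRM-like samples. For each of these, TRM-like replicates 1 and 2 were far above the TEff range and replicate 3 was below it, though barely for mt-Nd4 (131 against 132 CPM). mt-Nd4l (chrM:9877-10173) had 14.1, 19.7 and 17.6 CPM in TEff and 38.1, 33.9 and 15.3 in TRM-like samples. mt-Nd3 (chrM:9459-9806) had 340, 267 and 330 CPM in TEff and 503, 524 and 288 in TRM-like samples. In both, TRM-like replicates 1 and 2 were again above the TEff range, with replicate 3 inside it. Over all samples the fitted log2 fold changes were 0.87 (SE 0.33) for mt-Nd4, 0.69 (SE 0.28) for mt-Nd5, 1.00 (SE 0.39) for mt-Nd6, 0.77 (SE 0.30) for mt-Nd4l and 0.49 (SE 0.23) for mt-Nd3. None passed the test, with edgeR quasi-likelihood p-values, adjusted by Benjamini-Hochberg, from 0.261 to 0.367.

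mt-Cytb (chrM:14145-15288), the only mitochondrial subunit of complex III, had 892, 973 and 999 CPM in TEff and 1189, 1151 and 793 in TRM-like samples (log2 fold change 0.13, SE 0.18). In complex IV, mt-Co1 (chrM:5328-6872) had 7467, 7172 and 7544 CPM in TEff and 7392, 7722 and 6687 in TRM-like samples, and its log2 fold change was -0.03 (SE 0.16). mt-Co2 (chrM:7013-7696), which takes electrons from cytochrome c, had 1969, 1969 and 2006 CPM in TEff and 2545, 2628 and 1853 in TRM-like samples. All 3 of these overlapped between the groups, and the direction of mt-Co1 changed with the samples used. mt-Co3 (chrM:8607-9390) had 3695, 3403 and 3598 CPM in TEff and 4282, 4510 and 3071 in TRM-like samples. The log2 fold changes of mt-Co2 and mt-Co3 were 0.24 (SE 0.17) and 0.15 (SE 0.19).

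The ATP synthase pair also divided the TRM-like samples. mt-Atp6, part of the proton channel, had 1014, 1072 and 1084 CPM in TEff and 1552, 1589 and 891 in TRM-like samples (log2 fold change 0.35, SE 0.22). mt-Atp8 had 80.2, 67.3 and 85.2 CPM in TEff and 121, 131 and 77.6 in TRM-like samples (log2 fold change 0.50, SE 0.20). TRM-like replicates 1 and 2 were above all TEff samples in both genes, and replicate 3 was below the TEff range in mt-Atp6 and within it in mt-Atp8.

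**Figure D2:**
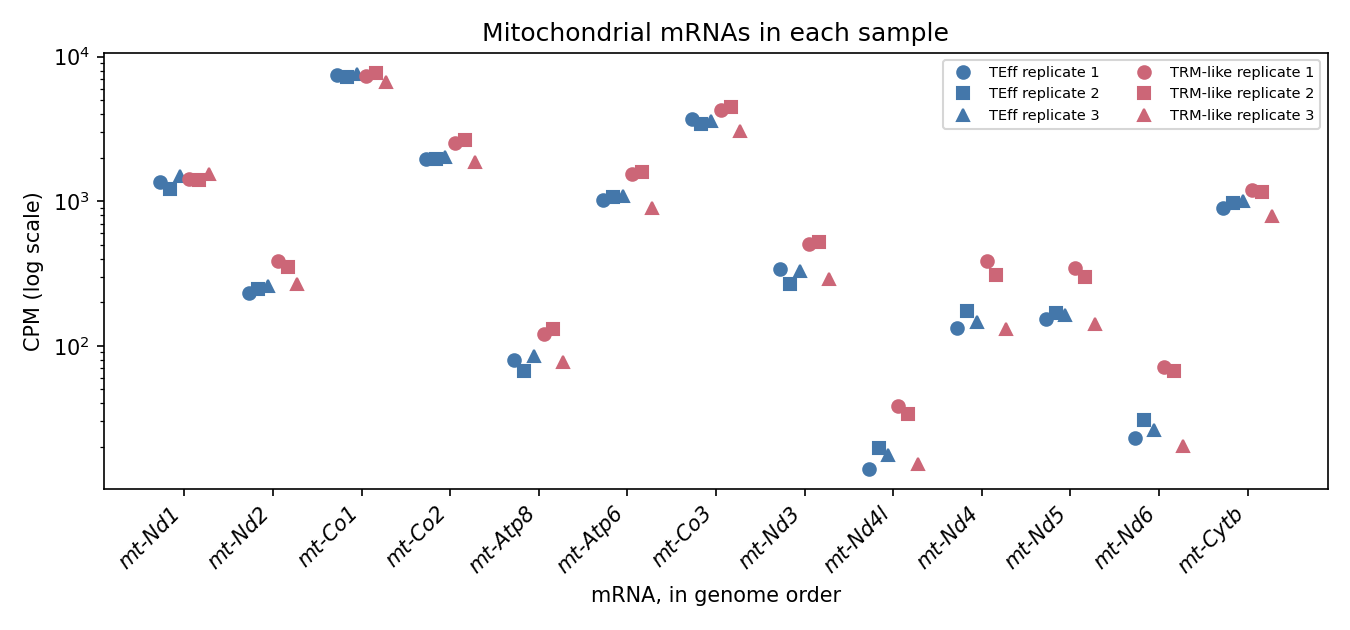
CPM (log scale) of the 13 mitochondrial mRNAs in genome order, 1 point per sample (blue TEff, red TRM-like; circle, square and triangle are replicates 1, 2 and 3). TRM-like replicates 1 and 2 lie above the TEff samples for mt-Nd4, mt-Nd5 and mt-Nd6 while replicate 3 (131, 141 and 20.3 CPM) lies just below them.

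For the rRNAs, TRM-like replicates 1 and 2 were not both above the TEff range. mt-Rnr2 had 181440, 186270 and 177620 CPM in TEff and 179240, 182490 and 144470 in TRM-like samples (log2 fold change -0.11, SE 0.23). mt-Rnr1 had 8207, 11888 and 9255 CPM in TEff and 12254, 11281 and 7648 in TRM-like samples (log2 fold change 0.09, SE 0.24), and its direction changed with the samples used. TRM-like replicate 3 was the lowest of the 6 samples for both rRNAs.

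Among the tRNAs, mt-Tp, mt-Tn and mt-Tc held 87.5% to 93.9% of the 410 to 1215 tRNA counts per sample. mt-Tn had 5.90, 6.63 and 6.41 CPM in TEff and 11.6, 12.3 and 6.96 in TRM-like samples (log2 fold change 0.71, SE 0.23). mt-Tc had 9.92, 7.19 and 8.12 CPM in TEff and 14.1, 14.7 and 10.4 in TRM-like samples (log2 fold change 0.63, SE 0.19). The groups did not overlap for either gene, although neither passed (edgeR quasi-likelihood, Benjamini-Hochberg adjusted p = 0.179 and 0.155). TRM-like replicate 3 lay close to TEff in both. It had 151 mt-Tn counts against 131 in TEff replicate 2, and 226 mt-Tc counts against 217 in TEff replicate 1. mt-Tp had 7.64, 8.66 and 6.02 CPM in TEff and 23.1, 22.8 and 6.41 in TRM-like samples, so that replicate 3 lay within the TEff range (log2 fold change 1.23, SE 0.42; adjusted p = 0.203 by the same edgeR test).

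The other 19 tRNA genes had at most 25 counts in any sample, and 13 of the 22 had 0 in some sample. The sequencing libraries were not made for RNAs as short as mature tRNAs. Whether these counts come from tRNAs or from precursors that hold them was not tested. Whether reads of the opposite strand add to the counts on mt-Tp, mt-Tn and mt-Tc was not tested either. mt-Ts2, a serine tRNA gene on the plus strand, had 0 counts in all TEff samples, each of which allows up to 3 counts, and 5, 9 and 1 counts in TRM-like samples. mt-Tf and mt-Td had too few counts to be tested.

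Over all members, none of the 35 that could be tested (13 mRNAs, 2 rRNAs and 20 tRNAs) was called higher or lower in TRM-like samples by edgeR's quasi-likelihood test, at a Benjamini-Hochberg adjusted p below 0.05 and a log2 fold change beyond 0.58. Of all 26154 genes tested, 1.52% were called higher and 1.48% lower, or 3.01% in either direction. 10 members had an unadjusted p below 0.05, as did 14.8% of all genes tested. They were mt-Nd2, mt-Atp8, mt-Nd4l, mt-Nd4, mt-Nd5, mt-Nd6, mt-Tn, mt-Tc, mt-Tp and mt-Ts2, all with a positive log2 fold change. DESeq2 called 1, mt-Tp (adjusted p = 0.0439), and limma-voom called 0 (11 and 5 at an unadjusted p below 0.05). The median log2 fold change was 0.34 over tested members and 0.44 over the mRNAs, against 0.02 over all genes. In 4 of the 35 tested members every TRM-like sample was above every TEff sample in CPM, and in none was every one below. The same held for 10.6% of all tested genes, and the opposite for 9.71%, so the members' share was close to the background.

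Without TRM-like replicate 3, 9 of 33 members tested were called higher and 0 lower, against 6.38% and 7.67% of all genes, or 14.0% in either direction. They were mt-Nd6 (log2 fold change 1.38, SE 0.13), mt-Nd4 (1.20, SE 0.13), mt-Nd4l (1.07, SE 0.14), mt-Nd5 (0.98, SE 0.11), mt-Nd3 (0.71, SE 0.12), mt-Atp8 (0.69, SE 0.12), mt-Tp (1.61, SE 0.15), mt-Tn (0.91, SE 0.14) and mt-Tc (0.76, SE 0.15). Of the mRNAs called, 5 encode complex I subunits and 1 an ATP synthase subunit. The rRNAs (log2 fold change 0.26 for mt-Rnr1 and -0.02 for mt-Rnr2) and the other 7 mRNAs were not called. Among these mRNAs, mt-Nd2 (log2 fold change 0.57), mt-Atp6 (0.56) and mt-Co2 (0.38) had edgeR adjusted p-values of 0.00189, 0.00134 and 0.0151 and missed only the fold threshold. mt-Nd1 (0.05), mt-Co1 (0.02), mt-Co3 (0.29) and mt-Cytb (0.29) passed neither threshold. The median log2 fold change over tested members was 0.55 in this fit. The 2 TRM-like samples that remain also have the larger numbers of genes with a count, and counts on Rn7sk, a small nuclear RNA, made up 2.26% and 2.44% of their totals against 1.28% to 1.69% in the other 4 samples. The part of these differences in the mitochondrial result was not tested.

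**Figure D3:**
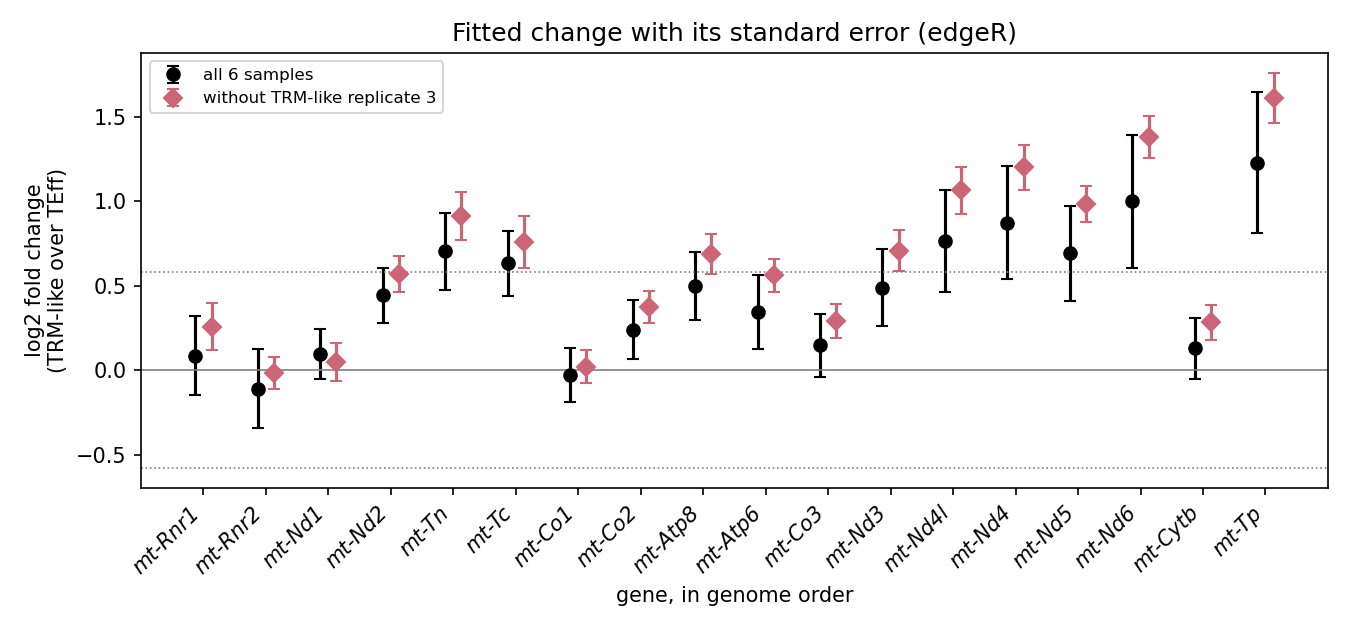
Fitted log2 fold change of TRM-like over TEff for the 18 members that reached 10 counts in each library, in genome order, with all 6 samples (black circles) and without TRM-like replicate 3 (red diamonds). Bars are the standard error, and dotted lines mark the 0.58 threshold; leaving out the replicate raised mt-Nd6 from 1.00 to 1.38 and shortened its bar.

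The fitted change was larger the lower the mRNA's level. Across the 13 mRNAs, the log of the mean per-length share in TEff and the log2 fold change had a Pearson r of -0.91 and a Spearman rho of -0.86 with all samples, and -0.89 and -0.85 without TRM-like replicate 3. This is a description across genes, which share libraries and a precursor, and the TEff samples enter both axes. Differences in CPM per kilobase did not follow this order. TRM-like replicate 1 differed from the TEff mean by 914 for mt-Co3, 825 for mt-Co2, 728 for mt-Atp6, 171 for mt-Nd4 and 86.8 for mt-Nd6. Its differences were 76.5 for mt-Nd1 and -1.42 for mt-Co1. In TRM-like replicate 2 they were 1205, 946, 781, 115 and 78.8 in the same order, with 39.8 for mt-Nd1 and 212 for mt-Co1. In TRM-like replicate 3 these differences were negative for mt-Co3 (-631), mt-Co1 (-458), mt-Atp6 (-244), mt-Co2 (-188), mt-Nd4 (-13.8) and mt-Nd6 (-12.1), and positive for mt-Nd1 (182).

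**Figure D4:**
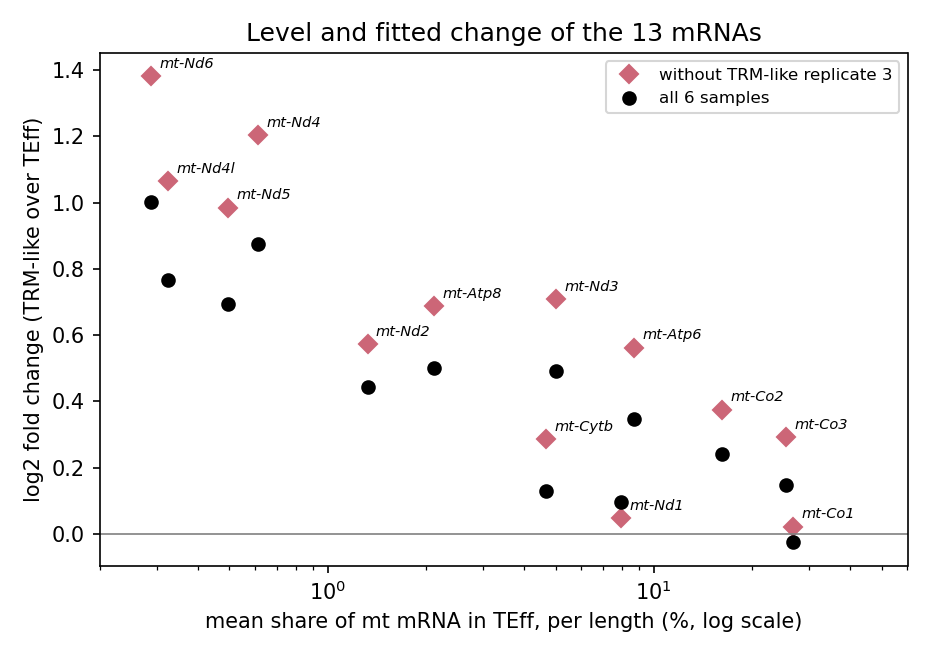
Log2 fold change of TRM-like over TEff for each of the 13 mRNAs against its mean share of mitochondrial mRNA in TEff, per length (%, log scale), with all 6 samples (black) and without TRM-like replicate 3 (red). mt-Nd6, the lowest mRNA, has the highest values (1.00 and 1.38) and mt-Co1, the highest mRNA, values near 0 (-0.03 and 0.02).

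Measured against the mitochondrial mRNA pool itself, the complex I and complex IV shares lay outside the TEff range in every TRM-like sample. Complex I mRNAs made up 16.1%, 15.2% and 16.7% of mRNA counts per kilobase in TEff and 18.5%, 17.5% and 18.1% in TRM-like samples (16.0% ± 0.755 and 18.02% ± 0.496, SD, n = 3 each). Complex IV mRNAs made up 69.1%, 68.8% and 67.6% in TEff and 63.7%, 64.8% and 67.3% in TRM-like samples (68.5% ± 0.818 and 65.3% ± 1.82, SD, n = 3 each). Neither share overlapped between the groups, each at a two-sided exact permutation p of 0.1, the smallest possible. TRM-like replicate 3 was closest to TEff in the complex IV share only. The complex shares add up to the whole pool in every sample, so a lower complex IV share forces a higher share elsewhere. The complex I and complex IV results are therefore not independent. The complex III share was 4.34% to 4.93% in TEff and 4.26% to 4.74% in TRM-like samples, and the complex V share 10.5% to 11.05% and 10.4% to 13.2% (exact permutation p = 0.4 for each). Without TRM-like replicate 3 the complex V groups no longer overlapped, and the difference went from 1.40 to 2.33 percentage points (exact permutation p = 0.2, the smallest that 3 against 2 samples can give), while that of complex III went from -0.186 to -0.0695.

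In TRM-like replicate 3 the higher complex I share came mainly from mt-Nd1, at 9.83% of the pool against 7.40% to 8.54% in TEff. In replicates 1 and 2 mt-Nd1 was lower, at 6.82% and 6.48%, and mt-Nd3 higher, at 6.60% and 6.69% against 4.45% to 5.44% in TEff. The shares of mt-Nd2, mt-Nd4, mt-Nd4l, mt-Nd5 and mt-Nd6 were also above the TEff range in replicates 1 and 2. Of these, only mt-Nd2 was above it in replicate 3 as well, at 1.58% against 1.24% to 1.38% in TEff. The group-level difference therefore rested partly on different genes in different samples. mt-Nd6 relative to the mean of the plus-strand mRNAs per kilobase was 0.0295, 0.0412 and 0.0331 in TEff. In TRM-like samples it was 0.0760, 0.0697 and 0.0289 (exact permutation p = 0.4). Replicate 3 was again the lowest, though just under the lowest TEff value of 0.0295. The difference was 0.0236, and 0.0383 without TRM-like replicate 3. How the strand setting of the counts bears on this ratio was not tested.

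Of the 13 mRNAs, 4 had a share of mitochondrial mRNA counts that did not overlap between the groups, against 19.1% of all tested genes whose ratio to that pool did not overlap. mt-Co1 was lower in TRM-like samples, at 36.5%, 37.3% and 42.4% of the pool against 43.0%, 42.7% and 42.5% in TEff. mt-Nd2, mt-Co2 and mt-Atp8 were higher, mt-Co2 by little in TRM-like replicate 3 (11.75% against 11.73% in TEff replicate 2). By counts per kilobase mt-Co2 overlapped, leaving 3. The shares of the 13 mRNAs also add up to the whole pool, so a lower mt-Co1 share raises others. Most genes of the background lie outside that pool. Without TRM-like replicate 3 the number was 11 of 13, the exceptions being mt-Co3 and mt-Cytb, against 52.1% of all tested genes. When edgeR was fitted over all genes with the mitochondrial mRNA total in place of library size, it called 0 of the 13, with 3 at an unadjusted p below 0.05 (log2 fold changes from -0.14 for mt-Co1 to 0.81 for mt-Nd6).

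**Figure D5:**
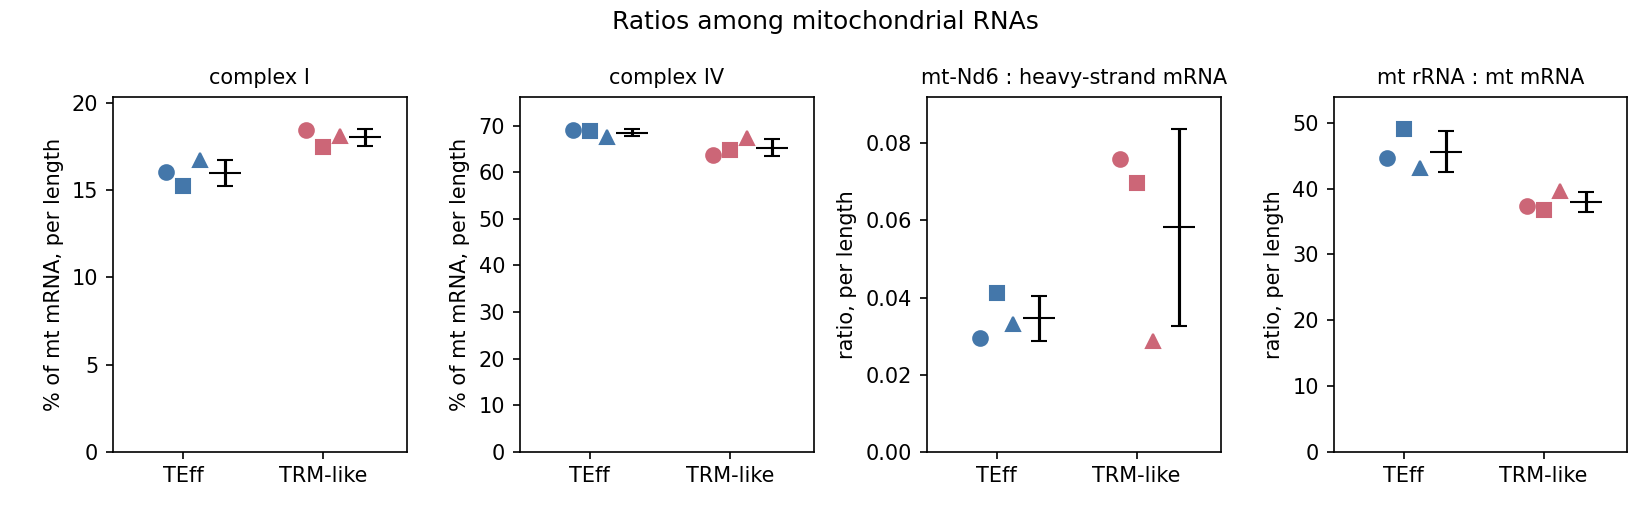
Complex I and complex IV shares of mitochondrial mRNA (%, per length), mt-Nd6 over the mean of the plus-strand mRNAs, and mitochondrial rRNA over mRNA (ratios per length) in each sample, with the group mean and SD in black. The complex I, complex IV and rRNA panels do not overlap between groups. For mt-Nd6, TRM-like replicate 3 (0.0289) lies just below the TEff samples (0.0295 to 0.0412).

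Part of the mitochondrial genome has near-identical copies in the nucleus, so counts on some members are uncertain. At 95% identity or more over 100 bases or more, 8 nuclear regions matched, holding 11 annotated genes. The closest is a run of 4654 bases at chr1:24650616-24655269 with 2 mismatches, which covers mt-Co2, mt-Atp8, mt-Atp6, mt-Co3, mt-Nd3 and mt-Nd4l whole and parts of mt-Co1 and mt-Nd4. Summed counts on the 11 genes equalled 5.24%, 5.67% and 5.27% of the mitochondrial mRNA counts in TEff and 4.07%, 4.06% and 5.40% in TRM-like samples. For single genes the share was larger: Gm10222 held as many counts as 10.4% to 25.6% of those on mt-Nd4l, and Gm28661 as 7.51% to 10.8% of those on mt-Co2. Whether these counts come from the copies or from mitochondrial RNA cannot be told apart. Adding them to the genes they copy left 0 members called by edgeR, with 10 at an unadjusted p below 0.05.

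Lists of mitochondrial genome maintenance, gene expression and biogenesis, 8 in number, held 201 nuclear genes, and all were tested. Of these, edgeR called 2 higher and 1 lower in TRM-like samples, against 1.52% and 1.48% of all genes. The median log2 fold change of the 201 genes was -0.06, against 0.02 over all genes. Polg, the catalytic subunit of the mitochondrial DNA polymerase, was lower: it had 53.0, 42.2 and 47.8 CPM in TEff and 27.3, 28.4 and 33.7 in TRM-like samples (log2 fold change -0.68, SE 0.14; edgeR quasi-likelihood with Benjamini-Hochberg adjustment, adjusted p = 0.0415). It was 1 of 16 genes of mitochondrial DNA replication and maintenance. Aars2, the mitochondrial alanyl-tRNA synthetase, was higher, at 17.7, 14.3 and 16.2 CPM in TEff and 24.8, 27.6 and 26.3 in TRM-like samples (log2 fold change 0.71, SE 0.14; adjusted p = 0.0274 by the same edgeR test). Mrpl41, 1 of 78 mitochondrial ribosomal protein genes, was higher too, at 19.7, 17.6 and 18.5 CPM against 30.0, 31.7 and 30.2 (log2 fold change 0.72, SE 0.12; adjusted p = 0.0153 by the same edgeR test). For each of the 3 genes the groups did not overlap, and all 3 calls were lost when any of the other 5 samples was left out.

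In the remaining 5 lists edgeR called 0 of 85 genes, with 7 at an unadjusted p below 0.05, DESeq2 called 1 and limma-voom 0. Of 9 genes of mitochondrial transcription, Mterf1a had the smallest p, with a log2 fold change of 0.39 (SE 0.18). Of 29 genes of RNA processing, stability and decay it was Rexo2, an oligoribonuclease (0.79, SE 0.20; edgeR adjusted p = 0.0763). In the list of 26 rRNA and tRNA modification genes it was the methyltransferase gene Nsun3 (0.41, SE 0.14), among 12 translation factors Gfm2 (-0.33, SE 0.12), and among 9 biogenesis regulators Esrra (0.28, SE 0.14). Without TRM-like replicate 3, 7 of the 201 genes were called higher and 17 lower, with a median of -0.13, against 6.38% and 7.67% of all genes in that fit, so these shares were near or below the background.

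Of 78 nuclear-encoded subunits of the same respiratory complexes that were tested, edgeR called 0, with 6 at an unadjusted p below 0.05 and a median log2 fold change of 0.12, and the smallest p belonged to Ndufb1, a complex I subunit, at 0.44 (SE 0.12; edgeR adjusted p = 0.123). DESeq2 and limma-voom called 0 as well, each with 7 at an unadjusted p below 0.05. Without TRM-like replicate 3 edgeR called 0 of them, with 20 at an unadjusted p below 0.05 and a median of 0.07. That fit gave such a p to 32.1% of all genes and called 14.0%, and it called 6 of the 13 mitochondrial mRNAs, with a median of 0.57.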

How the data were processed

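RNA from 3 TEff and 3 TRM-like samples was sequenced from stranded total RNA libraries. The authors trimmed reads with cutadapt 4.8, mapped and counted them with Rsubread against GENCODE M34 (build GRCm39), and deposited the unnormalised count of each gene. The strand setting and the treatment of reads with several matches are not given in the sources used here. The submitters' processing notes also name DESeq2 1.40.2. The authors' methods mention removing a batch effect from transformed counts, but no source used here says which samples form the batches. No batch term was therefore fitted. How batches fall across the groups is not known, so the part of batch in the group differences could not be tested. The deposited counts are untransformed.

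Groups follow the sample titles. Symbols and coordinates came from a later GENCODE release of the same build, in which 56620 of 57126 rows were found. The members and gene lists were chosen with earlier results of these data known. Genes counted in 3 or more samples (minimum count 1) were tested with edgeR 4.0.16 (TMM, quasi-likelihood, Benjamini-Hochberg) in R 4.3.3 and called where the adjusted p was below 0.05 and the log2 fold change beyond 0.58 in either direction. CPM used TMM-scaled library sizes. The standard error was the log2 fold change divided by the square root of F. DESeq2 1.42.0 and limma 3.58.1 were alternatives. DESeq2's independent filtering was first run at its default level of 0.1 and was then set to the call threshold of 0.05, a change made after its counts had been seen; both are reported. Shares and ratios were compared by two-sided exact permutation tests with scipy 1.17.1. Nuclear copies were found with blastn 2.17.0. The count test was checked on simulated data. All mRNAs and rRNAs, and tRNAs that reached 10 counts in each sample, are named; of each nuclear list, up to 3 called genes by smallest p, or the gene with the smallest p where none was called. Correlations of same-numbered deviations were -0.36, 0.37 and 0.44 for replicates 1, 2 and 3 over 14822 genes. Whether replicate numbers pair the samples was not settled by these values, and the main fit used no pairing.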

Additional observations from a re-analysis of the deposited data

How the results depend on the processing

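The number of mitochondrial genes called, 0 with all samples, was 1 with DESeq2 at either filtering level, 7 with no filter on low counts, 8 with the replicate number as a block and 0 to 9 when each sample was left out in turn, the 9 being without TRM-like replicate 3. All genes called, 786, became 1256 with DESeq2, 1264 with DESeq2 at its default filtering level (added after seeing the data), 1868 with no filter, 2034 with the replicate block and 263 to 3579 when each sample was left out. The 3 calls in the nuclear lists became 6 with the replicate block and 0 to 24 with a sample left out. The labels do not say that a replicate number marks a batch or a shared source. Same-numbered samples correlated positively in 2 of 3 pairs, but these are deviations from each group's own mean and depend on each other. Different-numbered pairs were not compared, so these correlations cannot decide on pairing. The blocked calls can be neither set aside nor preferred here. The fits with no filter and with the block had an infinite prior degrees of freedom, and the median log2 fold change of all genes was 0.38 with no filter.

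The 4 mRNAs whose share of the mRNA pool did not overlap became 0 calls with the pool total as offset and 4 to 11 with a sample left out, the 11 being without TRM-like replicate 3. The difference in the share of all mitochondrial genes, -1.04 percentage points, ran from -1.86 to 0.268 with a sample left out and turned sign without TRM-like replicate 3. mt-Rnr1, at 0.09, ran from -0.0467 to 0.258 and was negative without TEff replicate 1 (-0.0156) or TRM-like replicate 1 (-0.0467). mt-Co1, at -0.03, ran from -0.0740 to 0.0221 and was positive without TEff replicate 3 (0.00457) or TRM-like replicate 3 (0.0221). The cause of these changes was not tested. With 3 samples a group no exact permutation p below 0.1 was possible, and tRNA counts limit what could be detected for 19 of the 22 tRNAs.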
